A study of Mus musculus with 2 samples.

Results

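The genes of CD44, its ligands and the hyaluronan pathway were followed across the cell types of RM-1 tumors. They were Cd44, the secreted ligand Spp1, the hyaluronan synthases Has1, Has2 and Has3, the proteoglycans Vcan and Srgn, the second hyaluronan receptor Hmmr, and the hyaluronidases Hyal1 and Hyal2. These 10 of the 32285 genes measured were chosen by name, and all were found. RM-1 is a mouse prostate cancer line, and its tumors were taken from a mouse given vehicle (control) and a mouse given enzalutamide (ENZ) for droplet-based scRNA-seq, with 1 library each. Enzalutamide is an inhibitor of the androgen receptor, and the genotype of both samples was labelled WT. The control library held 170830346 unique molecular identifiers (UMIs, counted transcripts) and the ENZ library 162030149. Immune cells were enriched during sorting according to the methods, so the share of a cell type in these libraries is not its share in the tumor. With 1 library per condition there is no replicate error: all intervals are 95% and cover counting error only, and a difference between libraries cannot be told apart from a difference between these 2 mice.

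CD44 is a membrane glycoprotein that anchors cells to hyaluronan, a long sugar polymer of the pericellular matrix. Hyaluronan is spun out at the plasma membrane by the Has synthases from UDP-glucuronic acid and UDP-N-acetylglucosamine, is cut by hyaluronidases, and is cross-linked by proteins such as versican, the product of Vcan. Osteopontin, encoded by Spp1, and serglycin, the granule proteoglycan of blood cells encoded by Srgn, also bind CD44. In tumors CD44 is widely used as a marker of stem-like cancer cells, and osteopontin is known as a product of macrophages, tumor cells and matrix-forming cells.

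Barcodes with at least 1000 UMIs and at most 20% mitochondrial UMIs numbered 12253 in the control library and 10271 in ENZ, with medians of 6376 and 8127 UMIs. Of the barcodes, 39 were shared between the libraries. Cells were gated by marker UMIs: Krt18 and Rhox5 for cancer cells, Dcn for fibroblasts, C1qa for macrophages, Ly6c2 for monocytes, S100a8 for neutrophils and Cd3e for T cells. The control library gave 4112 cancer cells, 59 fibroblasts, 1210 macrophages, 342 monocytes, 797 neutrophils and 161 T cells. The ENZ library gave 4264, 67, 629, 440, 307 and 232 cells of the same gates. A further 44.2% of control and 41.3% of ENZ cells passed no gate, and 151 and 86 cells passed several. In both libraries the other markers of each cell type had their highest summed level in the gate of that type. The cancer gate rests on Krt18 and Rhox5. Its 5 other markers summed to 625 and 720 counts per 1000000 UMIs (CPM), mostly Krt8 at 466 and 529. The epithelial adhesion genes of that list were close to 0 in cancer cells and went the other way. Epcam was at 3.37 and 3.14 CPM in cancer cells and 11.8 and 10.2 in T cells. Cdh1 was at 1.15 and 0.917 CPM in cancer cells and 11.9 and 29.5 in monocytes. Depth differed between gates, from a median of 2007 UMIs in control neutrophils to 23298.5 in ENZ cancer cells, so shares of cells with a UMI were compared after thinning each cell to 1000 UMIs.

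Cd44 was detected in every gate and was highest in neutrophils (2703 CPM in control and 2533 in ENZ). Monocytes followed at 1077 and 1178 CPM, macrophages at 626 and 566, and fibroblasts at 499 in both libraries. Cancer cells held 344 and 419 CPM and T cells 414 and 312. The neutrophil level was 2.32 times that of monocytes, and the monocyte level 1.89 times that of macrophages. The step from macrophages to fibroblasts was 1.19 times, and cancer cells and T cells exchanged places between the libraries, with ranges that overlapped. After thinning, 82.7% and 80.1% of neutrophils had a Cd44 UMI, against 27.4% and 33.4% of cancer cells. Barcodes with 10 to 99 UMIs, which mostly carry free RNA, held Cd44 at 388 and 404 CPM, a level that the cancer and T cell gates straddled. By quantity the order was different. Cancer cells gave 54.4% of all Cd44 UMIs in the control library and 67.5% in ENZ, less than their 70.9% and 77.4% of all UMIs.

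**Figure D1:**
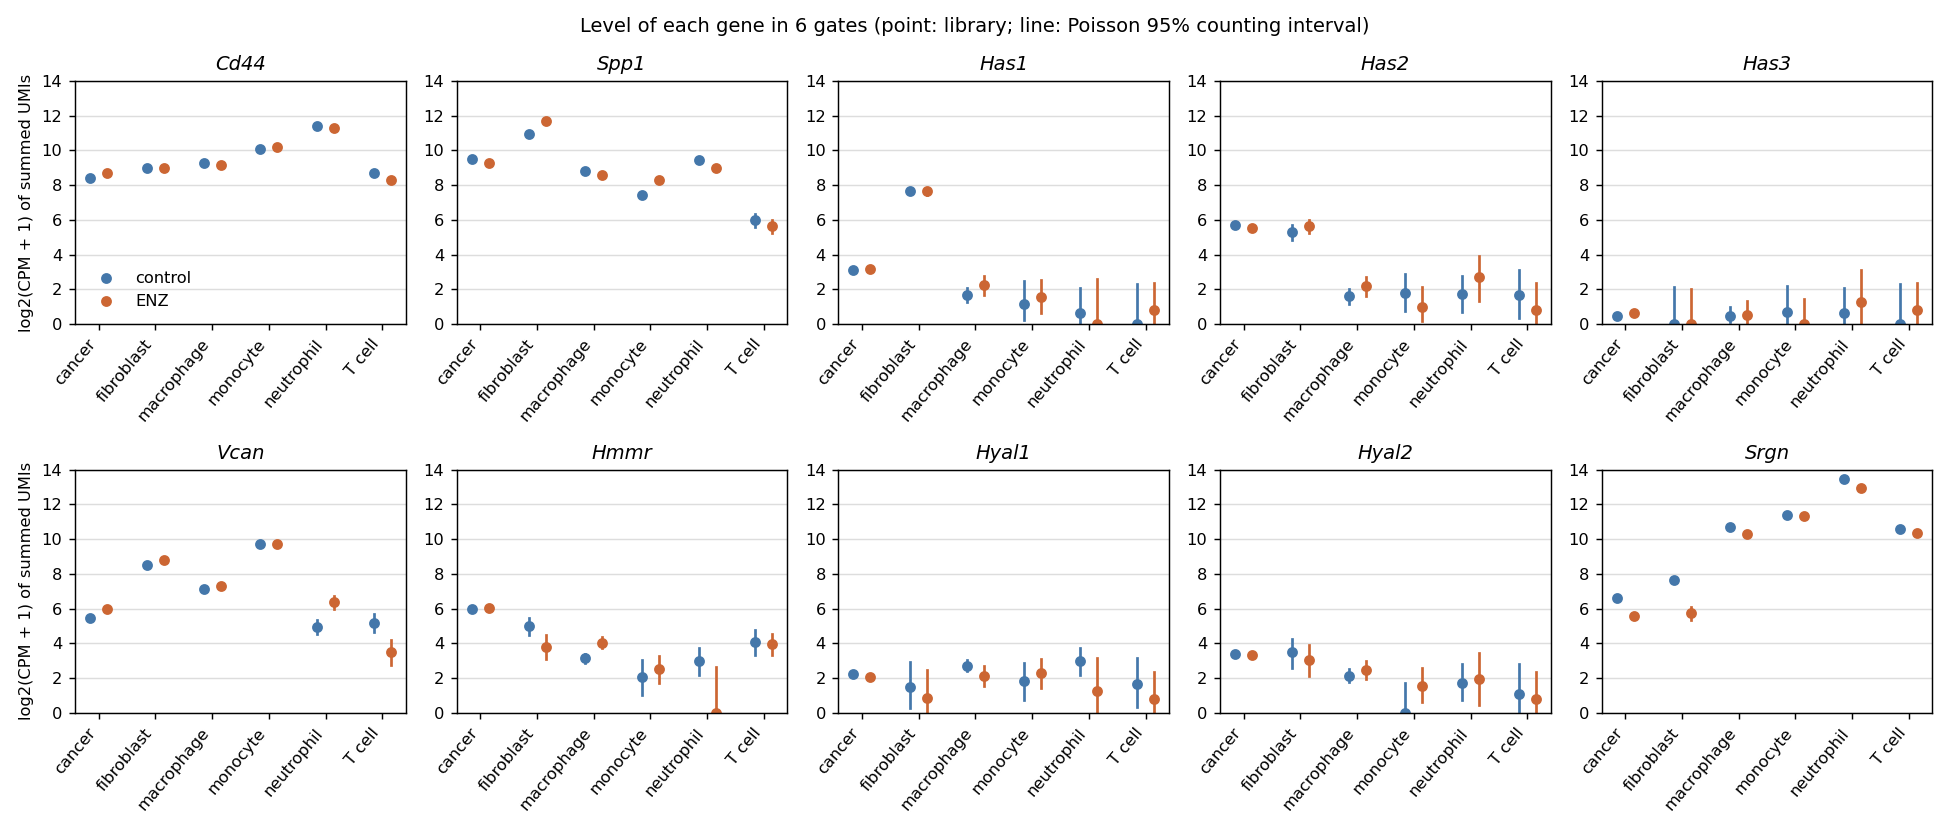
Level of each of the 10 genes in 6 gates, on a log2(CPM + 1) axis, with 1 point per library and exact Poisson 95% intervals. Cd44 and Srgn peaked in neutrophils, Spp1 and Has1 in fibroblasts, Vcan in monocytes, and Hmmr in cancer cells.

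Between the libraries, the Cd44 ratio stayed inside 1.5-fold in every gate. In cancer cells it was 1.22 times as high in ENZ (1.20–1.23), and the median cancer cell held 2.79 Cd44 UMIs per 10000 in the control library and 3.60 in ENZ. In monocytes the ratio was 1.09 (1.03–1.16) and in fibroblasts 0.9995. It was 0.904 (0.864–0.945) in macrophages, 0.937 (0.887–0.989) in neutrophils and 0.754 (0.656–0.868) in T cells. In the T cell gate 7 macrophage markers summed to 399.9 and 84.8 CPM and 6 NK cell markers to 450.1 and 259 CPM, and their part was not tested. None of the 6 ratios reached 1.5-fold, and the directions in macrophages and neutrophils turned under other ways of gating or averaging cells. Over the 6 gates together, 10.2% of all pairs of gene and gate were at least 1.5-fold higher and 6.91% lower. In cancer cells only 0.432% of all genes were that much higher and 1.05% lower. The 95th percentile of log2 ratios over all genes was 0.35 there, against 0.28 for Cd44. In cancer cells the ratio was 1.23 (1.21–1.25) among cells with at most 2 leukocyte UMIs per 10000, a restriction chosen after values were seen.

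The 250 bases upstream of the start of Cd44 are shown because the set turns on this receptor. Those of Spp1 and Has1 are shown beside it because both genes peaked in fibroblasts. Sequences are RefSeq's on GRCm38.p6, and 8 of the 10 genes were found in that table. Cd44 lies on the minus strand at chr2:102811141-102901665, Spp1 on the plus strand at chr5:104435118-104441050 and Has1 on the minus strand at chr17:17843323-17855205 (GENCODE M21). The windows printed are chr2:102901666-102901915, chr5:104434861-104435110 for the upstream of 2 Spp1 starts, and chr17:17855189-17855438, each 5′ to 3′ along the gene, with motif matches in capitals.
Cd44: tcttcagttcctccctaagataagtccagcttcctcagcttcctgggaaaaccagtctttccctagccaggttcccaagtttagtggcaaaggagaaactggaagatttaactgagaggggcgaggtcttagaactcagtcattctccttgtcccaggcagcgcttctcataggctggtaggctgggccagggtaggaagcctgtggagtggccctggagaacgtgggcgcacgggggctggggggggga
Spp1: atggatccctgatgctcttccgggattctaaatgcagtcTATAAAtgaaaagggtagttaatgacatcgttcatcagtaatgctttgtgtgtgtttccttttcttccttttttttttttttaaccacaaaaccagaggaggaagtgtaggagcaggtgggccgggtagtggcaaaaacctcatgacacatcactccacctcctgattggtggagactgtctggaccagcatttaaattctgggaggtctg
Has1: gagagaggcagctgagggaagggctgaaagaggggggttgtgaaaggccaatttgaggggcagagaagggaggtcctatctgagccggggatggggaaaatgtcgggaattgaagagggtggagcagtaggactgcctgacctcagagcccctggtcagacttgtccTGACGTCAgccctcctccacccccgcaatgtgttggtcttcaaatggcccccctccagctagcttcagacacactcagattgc
The motifs searched on both strands were TGACG and its palindrome TGACGTCA (cAMP response element), TGANTCA (AP-1), TATAAA, the E-box motif CACGTG, the NF-kB motif and GGGCGG (GC box, left in lower case). The Has1 window held TGACGTCA, starting 83 bases before the start, which 1.55% of 32851 promoter windows of the same length held. The palindrome contains TGACG on each strand, found in 17.8% of windows. The Spp1 window held TATAAA 211 bases before the start, as did 12.4% of windows, and the Cd44 window held none of these motifs. GGGCGG was in the windows of Vcan, Hmmr, Hyal1 and Hyal2 and in 32.7% of all windows. A match describes letters only, and binding was not measured.

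Spp1 came mainly from cancer cells by quantity and from fibroblasts by level. Fibroblasts held 1992 CPM in control and 3349 in ENZ, cancer cells 722 and 619, neutrophils 707 and 509, and macrophages 444 and 381. Monocytes were at 173 and 308 CPM and T cells at 62.0 and 48.2, both below the 567 and 562 CPM of barcodes with 10 to 99 UMIs, as were macrophages and, in ENZ, neutrophils. T cells are given for comparison of shares as the gate with the lowest level in these values, so they are no independent background. Of them, 21.7% and 21.6% had an Spp1 UMI before thinning and 3.73% and 4.74% after it. The thinned share was 42.5% and 37.7% in cancer cells, 22.0% and 37.3% in fibroblasts, 23.2% and 22.1% in macrophages, 22.7% and 20.8% in neutrophils, and 9.65% and 16.1% in monocytes. Cancer cells gave 77.8% of all Spp1 UMIs in the control library and 80.1% in ENZ, close to their 70.9% and 77.4% of all UMIs. Macrophages gave 4.79% and 2.11% of the Spp1 UMIs. Fibroblasts gave 2.14% and 4.74%, and were 0.482% and 0.652% of cells by the Dcn gate. Assigning each cell with a marker UMI to a class by marker lists instead put 1325 and 1231 cells in the fibroblast class. Spp1 was at 817 CPM there in control and 785 in ENZ. Dcn was at 206 and 203 CPM in that class, against 2655 and 2574 in the Dcn gate. Its Cd44 (351 and 425 CPM) was close to that of the cancer class from the same lists (354 and 427). With Dcn that low, the class cannot show whether Spp1 differed in Dcn-gated cells. Macrophages gave less of the Spp1 than their 7.10% and 3.32% of all UMIs.

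**Figure D2:**
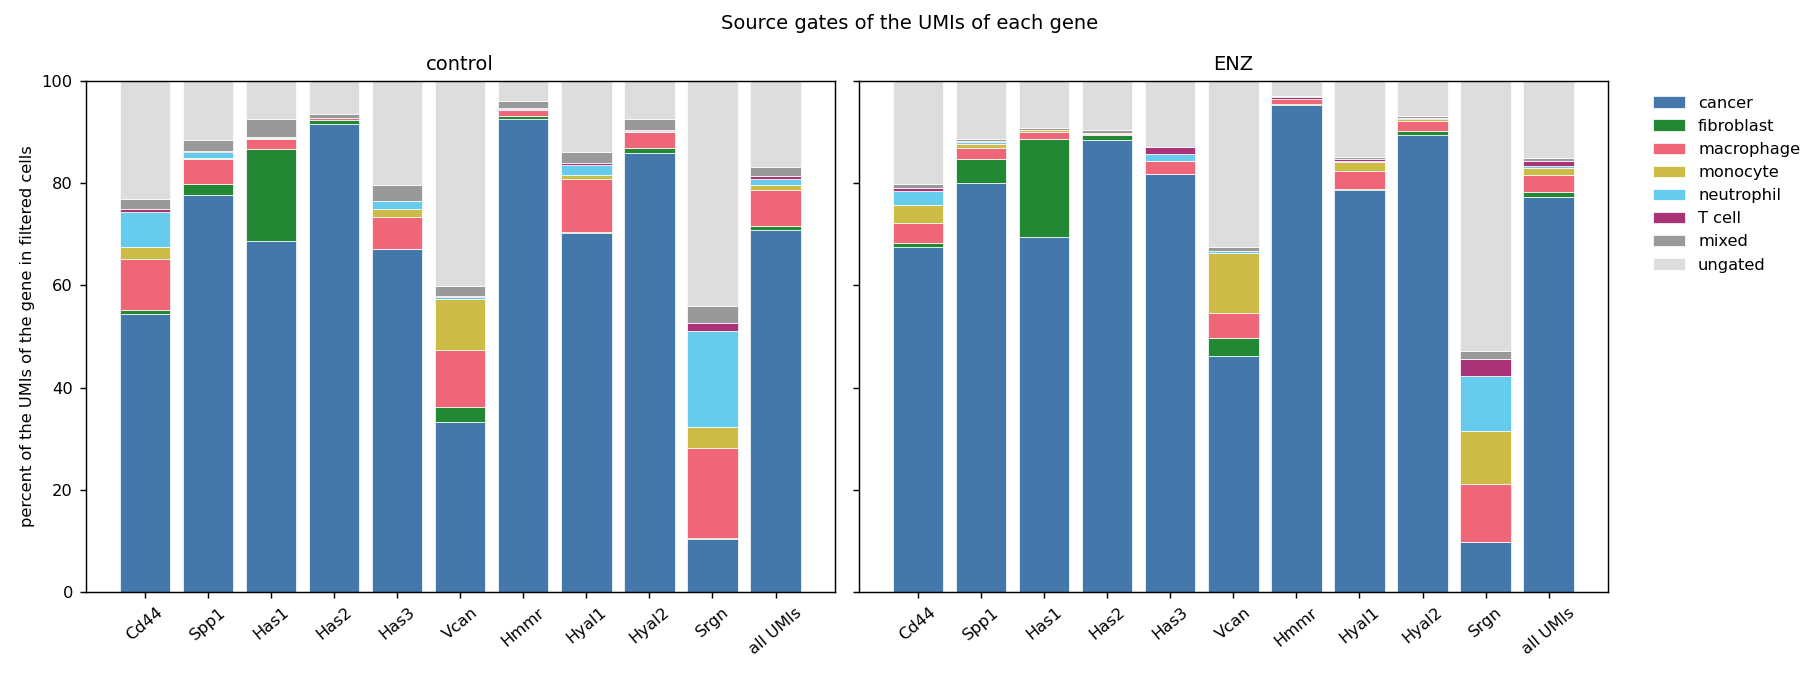
Share of each gene's UMIs that came from each gate (%), 1 bar per gene and library, beside the share of all UMIs. Cancer cells gave most UMIs of Has2, Hmmr and Spp1, while Srgn came mostly from ungated cells, neutrophils and macrophages.

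The cells of a gate differed widely in Spp1. In cancer cells Spp1 was less concentrated in the highest 5% of cells than in the other gates, by UMIs before thinning. Such shares, and medians of 0, also depend on depth. The median depth was 22286.5 and 23298.5 UMIs in cancer cells and 2007 and 2085 in neutrophils. The median cancer cell had 5.06 and 4.32 UMIs per 10000 and the 95th percentile was 18.5 and 17.4. The highest 5% of cells held 26.3% and 24.3% of the gate's Spp1. In neutrophils the median was 0, yet the highest 5% of cells held 49.8% and 53.3%, and the highest single cell had 199 and 147 UMIs per 10000. In macrophages the highest 5% held 40.9% and 43.3%. The Fano factor of thinned counts, the variance over the mean, was 1.56 and 1.58 in cancer cells and 3.07 and 2.50 in macrophages. It was 5.95 and 4.80 in neutrophils, 18.2 and 11.9 in fibroblasts, and 2.25 and 2.46 in monocytes. In T cells it was 0.963 and 1.11, below that of cancer cells.

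**Figure D3:**
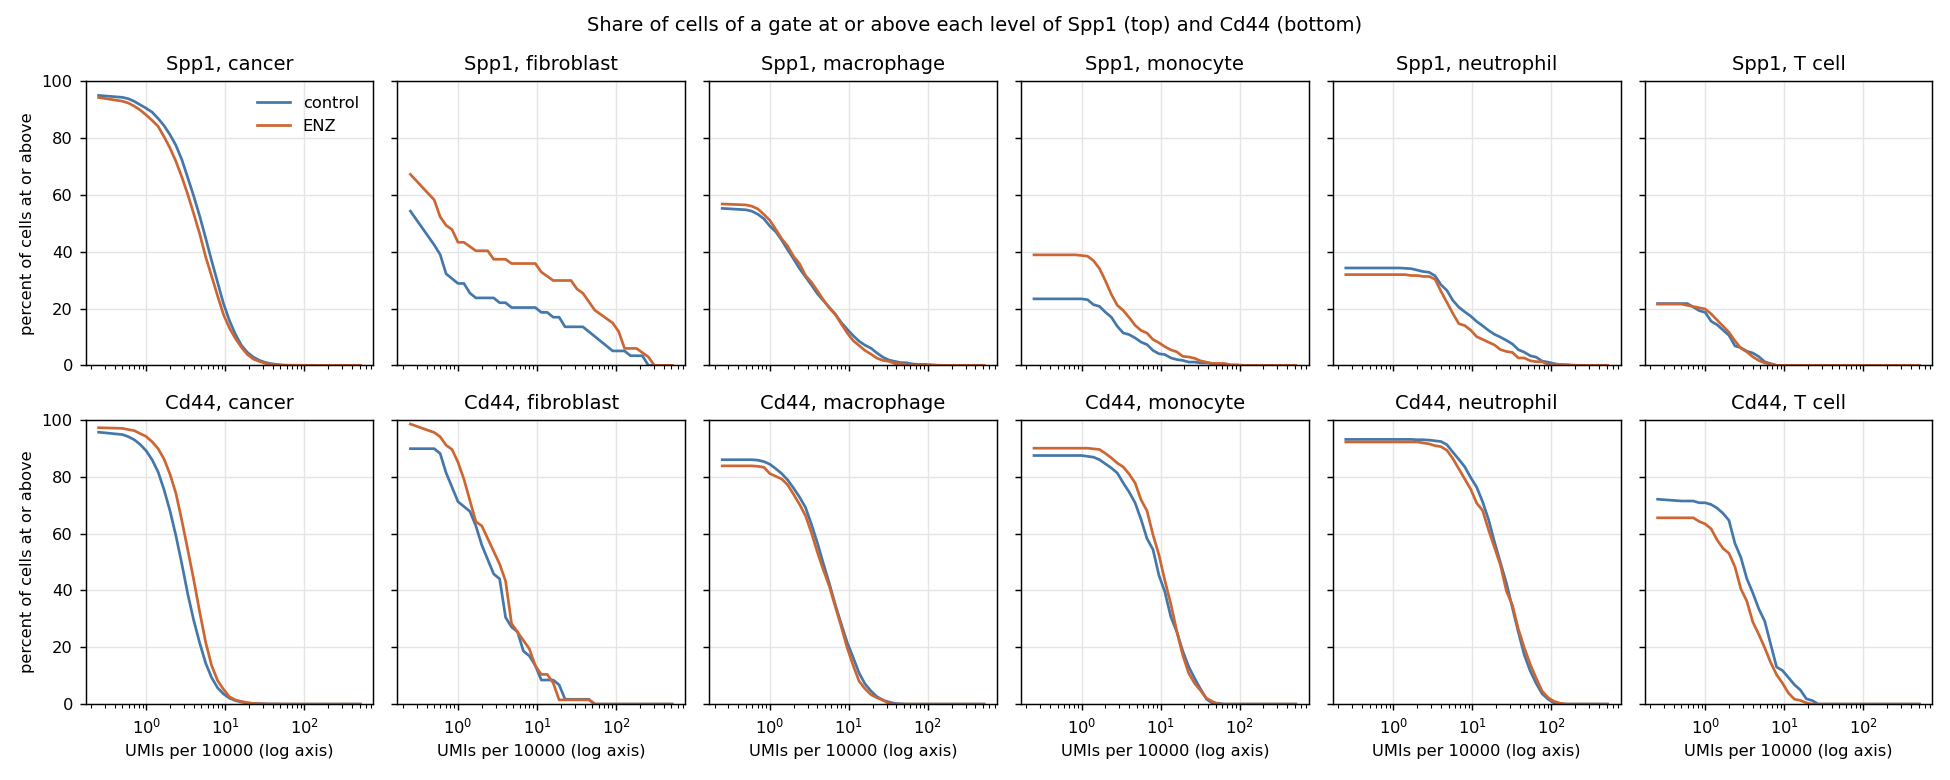
Share of cells (%) at or above each level of Spp1 (top) and Cd44 (bottom), in UMIs per 10000 on a log axis, for 6 gates and both libraries. The Spp1 curve of fibroblasts has a long high tail, and the Cd44 curve of neutrophils lies right of the other gates.

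Most Spp1 of the fibroblast gate lay in a minority of its cells, while 27 control and 22 ENZ fibroblasts had no Spp1 UMI. At a limit of 20 Spp1 UMIs per 10000, set after the distribution was seen, 8 of 59 control fibroblasts (13.6%) and 20 of 67 ENZ fibroblasts (29.9%) were high. The lowest high cells had 38.8 and 31.9 UMIs per 10000 and the highest of the others 19.9 and 15.5, with 6 and 7 cells between 2 and 20. High cells held 93.7% and 96.6% of the Spp1 of the gate, with 9426 CPM in control and 9911 in ENZ, against 156 and 171 CPM in the other fibroblasts. The Spp1 ratio of the whole gate was 1.68 (1.60–1.77), and leukocyte UMIs moved with it. In the control library 30 of 59 fibroblasts had at most 2 leukocyte UMIs per 10000 and in the ENZ library 60 of 67. Among those cells Spp1 was at 3041 and 3621 CPM, a ratio of 1.19 (1.13–1.26), with 6 and 19 high cells. The mural genes also moved, with Acta2, the smooth muscle actin of contractile cells, at 533 CPM in control and 172 in ENZ fibroblasts, and their part was not tested.

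In both libraries the high-Spp1 fibroblasts held less Cd44 than the others, at 259 against 558 CPM in the control (ratio 0.464, 0.345–0.612) and 284 against 603 in the ENZ library (0.471, 0.381–0.578). Among cells with at most 2 leukocyte UMIs per 10000 the ratios were 0.607 (0.440–0.824) and 0.493 (0.397–0.609). Co-detection of any Spp1 UMI with Cd44 after thinning pointed the other way in control fibroblasts (odds ratio 2.41, 0.689–8.44). In ENZ it pointed the same way (0.273, 0.0696–1.07), and both intervals included 1. Cd44 was also uneven between fibroblasts, since 3 cells held 36.1% of the 545 control UMIs and 3 cells 26.5% of the 619 in ENZ. Of 1715 genes with at least 100 CPM in a subset, 1.75% were at least 2-fold higher and 6.24% at least 2-fold lower in high-Spp1 cells of both libraries. Spp1, which defined the split, was 1 of the 30 higher genes. A gene could also enter through the subset where it was high, so these shares only describe the split. The higher genes included Inhba, the activin subunit, at 254 against 47.9 CPM in the control library and 207 against 8.37 in ENZ. Timp1, an inhibitor of matrix metalloproteinases, was at 4457 against 1633 and 2477 against 835 CPM, and Pdgfrb, a PDGF receptor of stromal cells, at 305 against 107 and 294 against 123 CPM. The lower genes included the gate gene Dcn, which encodes decorin, at 1151 against 3027 and 1030 against 3321 CPM, Lum, which encodes lumican, and Cd34, a marker of resident fibroblasts, at 0 and 3 UMIs. Col1a1, the type I collagen chain, was at 9237 against 11289 CPM in the control library and 15070 against 10899 in ENZ. Of the cancer cell markers, Krt8 was at 13.7 and 20.1 CPM in this gate. Epcam and Cdh1 were at 0, but both were also close to 0 in cancer cells. The genes named in this paragraph were picked after their values were seen, apart from Cd44 and Dcn.

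**Figure D4:**
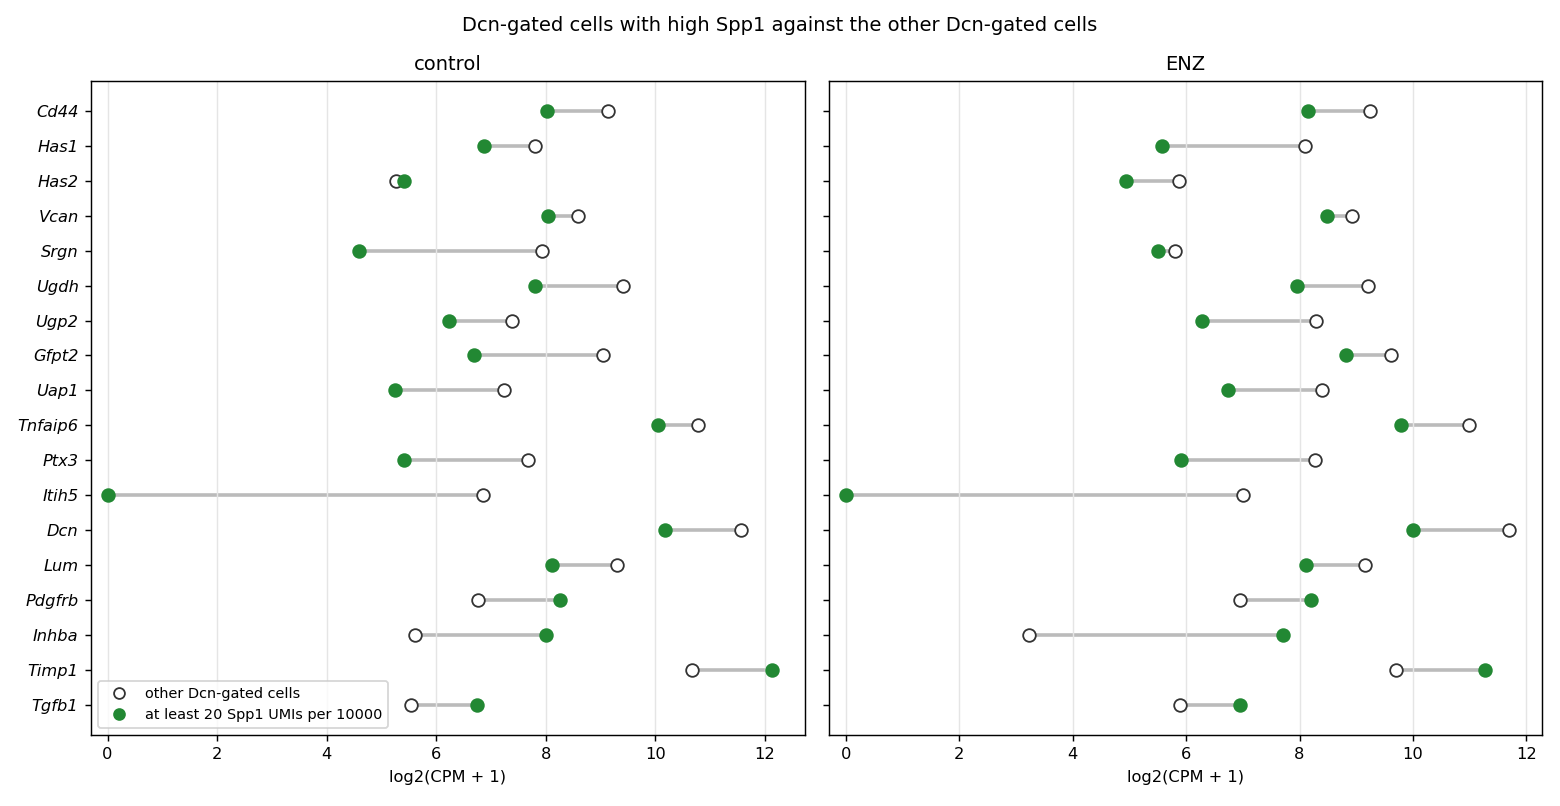
Levels (CPM) of members, hyaluronan genes and stromal genes in high-Spp1 and other Dcn-gated cells of each library. Cd44 and Ugdh were lower and Inhba and Timp1 higher in the high-Spp1 cells of both libraries.

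Monocytes were the other gate in which Spp1 was higher in ENZ, 277 UMIs in the control library and 647 in ENZ, a ratio of 1.78 (1.54–2.05). The median monocyte had no Spp1 UMI, and the highest 5% of the gate (17 and 22 cells) held 67.9% and 55.6% of them. Chil3, a monocyte marker, was at 1066 and 3279 CPM in this gate, and its part was not tested. The integrin Itgav was at 145 and 305 CPM in the same gate. In macrophages, the cells with an Spp1 UMI after thinning numbered 281 of 1210 and 139 of 629. Of 10 genes listed as macrophage context, 7 in each library were higher in these cells than in the rest, 2 and 3 of them at least 1.5-fold, and 0 and 1 were at least 1.5-fold lower. Over all genes, 2.62% and 4.95% were that much higher and 2.06% and 7.15% lower. The cells held more Gpnmb, a lysosomal glycoprotein of lipid-laden macrophages, than the rest, at 27.7 against 14.1 CPM in control and 55.5 against 24.9 in ENZ. Cx3cr1, the fractalkine receptor, was at 96.1 against 126.7 and 85.1 against 152.3 CPM. Of 8 hypoxia genes tested, 8 in the control library and 7 in ENZ were above 1 in this ratio, with median log2 ratios of 0.25 and 0.27 against 0.00 and −0.02 over all genes tested. Proliferation genes went opposite ways in the libraries, with 6 of 6 above 1 in control (median log2 ratio 0.17) and 1 of 7 in ENZ (−0.51).

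Among the hyaluronan synthases, Has1 was highest in fibroblasts, Has2 was in cancer cells and fibroblasts, and Has3 was close to absent. Has1 was at 201 CPM (176–230) in control and 199 CPM (175–225) in ENZ fibroblasts, from 220 and 247 UMIs. Of these cells 54.2% and 59.7% had a UMI before thinning and 11.9% and 16.4% after it, against none of the T cells after it. By quantity, cancer cells gave 68.6% and 69.5% of all Has1 UMIs, less than their 70.9% and 77.4% of all UMIs. Fibroblasts gave 18.1% and 19.2%, against 0.707% and 0.847% of all UMIs. Its next level, in cancer cells at 7.61 and 7.87 CPM, was 25.9 times lower and within the range of barcodes with 10 to 99 UMIs, 4.50 and 9.25 CPM. Neutrophils had 1 and 0 Has1 UMIs and T cells 0 and 1. Fibroblasts with at most 2 leukocyte UMIs per 10000 (30 and 60 cells) held Has1 at 79.1 CPM in the control library and 212 in ENZ. Those above that limit (29 and 7 cells, with 171 and 12 Has1 UMIs) were at 361 and 88.6 CPM. These values rest on few cells, since 3 control fibroblasts held 48.6% of the Has1 UMIs of their gate and 3 ENZ fibroblasts 22.7%, and the difference was not tested. Has1 in high-Spp1 fibroblasts was at 116 against 223 CPM in the control library and 46.9 against 273 in ENZ. Among cells with at most 2 leukocyte UMIs per 10000, control was at 109 against 66.6 CPM (1.63, 0.876–2.99), an interval that included 1. In ENZ those cells were at 50.9 against 295 CPM (0.173, 0.102–0.276).

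Has2 was at 51.8 CPM in control and 45.0 in ENZ cancer cells and at 38.4 and 48.3 in fibroblasts, with overlapping ranges. No other gate exceeded 5.56 CPM, below the 23.6 and 21.9 CPM of barcodes with 10 to 99 UMIs. Cancer cells gave 91.6% and 88.4% of all Has2 UMIs. Has2 was lower in cancer cells with a UMI of the proliferation genes Mki67 or Top2a after thinning, at 40.6 against 56.6 CPM in the control (0.717, 0.674–0.763) and 34.7 against 49.1 in the ENZ library (0.706, 0.660–0.754). Cancer cells with a Has2 UMI after thinning (213 and 181 cells) also held more Vegfa, the angiogenic factor, at 223 against 153 and 213 against 153 CPM. Ndrg1, a stress-response gene, was at 186 against 125.4 and 204 against 146 CPM. Of 8 hypoxia genes, 7 in each library were above 1 in this ratio and none reached 1.5-fold, with median log2 ratios of 0.29 and 0.16. None of 10 proliferation genes was above 1 in this ratio in either library, with median log2 ratios of −0.63 and −0.60 against −0.01 and −0.01 over all genes. At least 1.5-fold lower were 6 and 5 of the 10, against 1.40% and 0.820% of all genes. Has3 had 64 and 77 UMIs in all cells, at most 1.39 CPM in any gate and 0 in fibroblasts, which allows levels of up to 2.75 and 2.42 CPM (3 counts).

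Of 8 genes that make the precursors of hyaluronan, 8 in control and 7 in ENZ had their highest level of the 6 gates in fibroblasts. The 8, taken with the other pathway lists from a choice made with earlier results known, summed to 1473 CPM in control and 1836 in ENZ fibroblasts against 239 and 272 in cancer cells. Ugdh and Gfpt2 alone gave 69.7% and 62.7% of the fibroblast sum, while Gfpt1 in control was only 1.19 times its next level and Uxs1 in ENZ was level with cancer cells. Ugdh, which makes UDP-glucuronic acid, was at 585 and 480 CPM in fibroblasts and at most 35.3 elsewhere. Gfpt2, at the entry of the hexosamine pathway, was at 442 and 672 CPM in fibroblasts and at most 2.19 in the other gates. In ENZ fibroblasts 3 of the 8 were at least 1.5-fold higher, Ugp2 (147 and 236 CPM), Gfpt2 and Uap1 (127 and 262 CPM). None of the 8 was at least 1.5-fold lower. Of all genes tested in fibroblasts, 9.24% were that much higher and 11.9% lower. The median log2 ratio of the 8 was 0.34 against −0.03 over all genes of the gate. High-Spp1 fibroblasts held less Ugdh than the others, 222 against 675 and 247 against 593 CPM, and likewise Uap1 at 37.0 against 150 and 106 against 337. Among cells with at most 2 leukocyte UMIs per 10000, Ugdh was at 256 against 381 CPM in the control library (0.671, 0.475–0.933) and 263 against 669 in ENZ (0.393, 0.313–0.489). The order of the libraries also turned for Ugdh in those cells, at 344 CPM in control and 532 in ENZ.

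Of 15 genes for proteins that bind and cross-link hyaluronan, 3 were tested in fibroblasts. Tnfaip6, which transfers heavy chains onto hyaluronan, was at 1614 and 1659 CPM there, Ptx3 at 172 and 226 and Itih5 at 91.5 and 86.2. Neutrophils held Tnfaip6 as well, at 448 CPM in control and 207 in ENZ, and monocytes at 90.7 and 37.6. Each was at least 1.5-fold lower in ENZ, as were 8.72% of all genes in neutrophils and 7.48% in monocytes. Hyaluronidases were scarce: Hyal1 stayed at or below 6.90 CPM and Hyal2 at or below 10.1 in every gate, near the 3.37 and 0.841 CPM of Hyal1 and the 7.87 and 7.57 of Hyal2 in barcodes with 10 to 99 UMIs. Among the other genes of hyaluronan breakdown, Hexa, a lysosomal hexosaminidase subunit, was highest in macrophages (190 and 194 CPM), and Cemip2, a cell-surface hyaluronidase, was at 75.9 and 96.3 CPM in cancer cells. Of that list 4 genes were tested in each gate and 5 in fibroblasts. Cemip and Gusb were at least 1.5-fold lower in fibroblasts, where 11.9% of all genes were, and Hexa in T cells, where 8.94% were, and no other pair passed 1.5-fold.

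Among other hyaluronan receptors, the scavenger receptor Stab1 was at 116 CPM in control and 178 in ENZ macrophages, 1.53 (1.40–1.67) times as high in ENZ. The toll-like receptor Tlr2 was higher in ENZ monocytes (87.6 and 169 CPM) and neutrophils (98.3 and 177 CPM), and Tlr4 lower in ENZ neutrophils (468 and 285 CPM). Of all genes, 11.3% were at least 1.5-fold higher in macrophages, 11.1% in monocytes and 20.5% in neutrophils, where 8.72% were lower. In neutrophils 5 monocyte markers also summed to 639 and 1217 CPM, and their part was not tested. Of 16 partners and sheddases of CD44, 10 were tested in every gate, and of these 1 was at least 1.5-fold lower in ENZ in each of the 6 gates, as were 0.129% of all 4650 genes tested in every gate. It was Cd74, the invariant chain that forms the MIF receptor with CD44. Cd74 fell short of its control level most in fibroblasts (235 and 34.6 CPM) and T cells (798 and 172), and was at 7209 and 3767 CPM in macrophages. Markers of other cells were lower in the same gates: S100a9 was at 316 and 15.3 CPM in fibroblasts, and in T cells C1qb was at 63.1 and 9.50 CPM and 7 macrophage markers summed to 399.9 and 84.8. Their part in the Cd74 ratio was not tested. Its ligand Mif lay between 0.875 and 1.02 times the control in the 6 gates. Fn1, fibronectin, was at 3950 and 3414 CPM in fibroblasts and at 308 and 580 in macrophages. Among the integrins that bind osteopontin, Itgb1 was at 6.62 and 4.62 CPM in cancer cells, against 460 and 512.3 in fibroblasts and at least 75.0 in each other gate. Itgav in cancer cells was at 202 and 233 CPM and Itga5 at 150 and 162. Of the genes for CD44 splicing only Khdrbs1 was tested, and it passed 1.5-fold in no gate, and the counts do not tell CD44 splice forms apart.

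Vcan was highest by level in monocytes and fibroblasts. It was at 859 CPM in control and 844 in ENZ monocytes, at 358 and 442 in fibroblasts, at 141 and 155 in macrophages and at 42.0 and 62.0 in cancer cells. By quantity, cancer cells gave 33.4% and 46.1% of Vcan UMIs and ungated cells 40.01% and 32.4%, against 9.96% and 11.6% from monocytes and 2.84% and 3.60% from fibroblasts. The cancer level was below the 81.0 and 83.3 CPM of barcodes with 10 to 99 UMIs. The share of cancer cells with a UMI after thinning was 3.72% and 6.66%, and the ratio was 1.47 (1.42–1.53), or 1.53 (1.46–1.60) among cells with at most 2 leukocyte UMIs per 10000. Ratios in neutrophils (52 and 59 UMIs, 2.74) and T cells (33 and 14 UMIs, 0.290) rested on few cells, since the highest 5% of cells held at least 87.9% of the Vcan UMIs of those gates. Markers of the other Vcan-bearing cells moved with them: 5 monocyte markers summed to 639 and 1217 CPM in neutrophils, with Chil3 at 45.4 and 392, and 7 macrophage markers to 399.9 and 84.8 CPM in T cells. Their part was not tested.

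Hmmr, a receptor that also works at the mitotic spindle, was at 61.9 CPM in control and 64.8 in ENZ cancer cells, which gave 92.7% and 95.3% of its UMIs. In cancer cells with a Mki67 or Top2a UMI it was at 127 against 34.2 CPM in the control (3.72, 3.54–3.90) and 147 against 32.0 in the ENZ library (4.59, 4.38–4.82), whereas Cd44 differed little (0.985 and 0.928). In macrophages Hmmr was at 7.76 and 15.4 CPM, 1.99 (1.44–2.75) times as high in ENZ. Macrophages with a Mki67 or Top2a UMI were 7.11% of the gate in control and 12.6% in ENZ, and 4 of 6 proliferation genes tested there were at least 1.5-fold higher in ENZ, against 11.3% of all genes of the gate. The Hmmr of fibroblasts, 34 and 16 UMIs, lay mostly in 3 cells of each library, which held 97.1% and 75.0% of them.

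Srgn followed the leukocytes. It was at 11201 CPM in control and 8020 in ENZ neutrophils, 2660 and 2625 in monocytes, 1640 and 1253 in macrophages, and 1565 and 1303 in T cells. The median neutrophil held 113 and 83.7 UMIs per 10000, and 99.7% and 99.02% of neutrophils had a UMI after thinning. Cancer cells held 98.3 and 46.3 CPM, below the 716 and 517 CPM of barcodes with 10 to 99 UMIs, and their ratio was 0.471 (0.456–0.487). Leukocyte transcripts moved the same way in that gate: S100a9 was at 94.6 and 24.5 CPM and C1qb at 19.7 and 6.63. Cancer cells with at most 2 leukocyte UMIs per 10000 were 64.7% of the control and 87.5% of the ENZ gate. In them Srgn was at 33.8 and 27.8 CPM (0.823, 0.779–0.868), and in the remaining cancer cells at 236 and 237 CPM. In fibroblasts Srgn was at 200 and 51.6 CPM, a ratio of 0.257 that was 0.672 (0.432–1.05) among cells with at most 2 leukocyte UMIs.

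Over all members, 31 pairs of a gene and a gate had a mean of at least 10 CPM and were compared. Of these, 4 were at least 1.5-fold higher in ENZ and 4 at least 1.5-fold lower, against 10.2% and 6.91% of all 47088 pairs of any gene and gate. The higher pairs were Spp1 in fibroblasts and monocytes, Hmmr in macrophages and Vcan in neutrophils. The lower pairs were Srgn in cancer cells and fibroblasts, Hmmr in fibroblasts and Vcan in T cells. The background differed between gates, with 0.432% higher and 1.05% lower in cancer cells, 9.24% and 11.9% in fibroblasts, 11.3% and 3.84% in macrophages, 11.1% and 7.48% in monocytes, 20.5% and 8.72% in neutrophils, and 11.7% and 8.94% in T cells. The restriction to cells with at most 2 leukocyte UMIs per 10000 was run for the 4 of these pairs in cancer cells and fibroblasts. Spp1 in fibroblasts (1.19), Srgn in cancer cells (0.823) and Srgn in fibroblasts (0.672) then lay inside 1.5-fold, and Hmmr in fibroblasts was at 0.254 (0.128–0.482). Among pairs not called, the same restriction took Vcan in cancer cells from 1.47 to 1.53 (1.46–1.60), past 1.5-fold. Has1 in fibroblasts was then at 79.1 CPM in control and 212 in ENZ, also past it. Cd44 (1.23) and Spp1 (0.862) in cancer cells stayed inside 1.5-fold. The median log2 ratio of the members tested was −0.07 in cancer cells against 0.06 over all genes, −0.15 against 0.17 in macrophages, −0.28 against 0.15 in neutrophils and −0.36 against 0.04 in T cells. In fibroblasts it was −0.00070 against −0.03 and in monocytes 0.05 against 0.04.

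**Figure D5:**
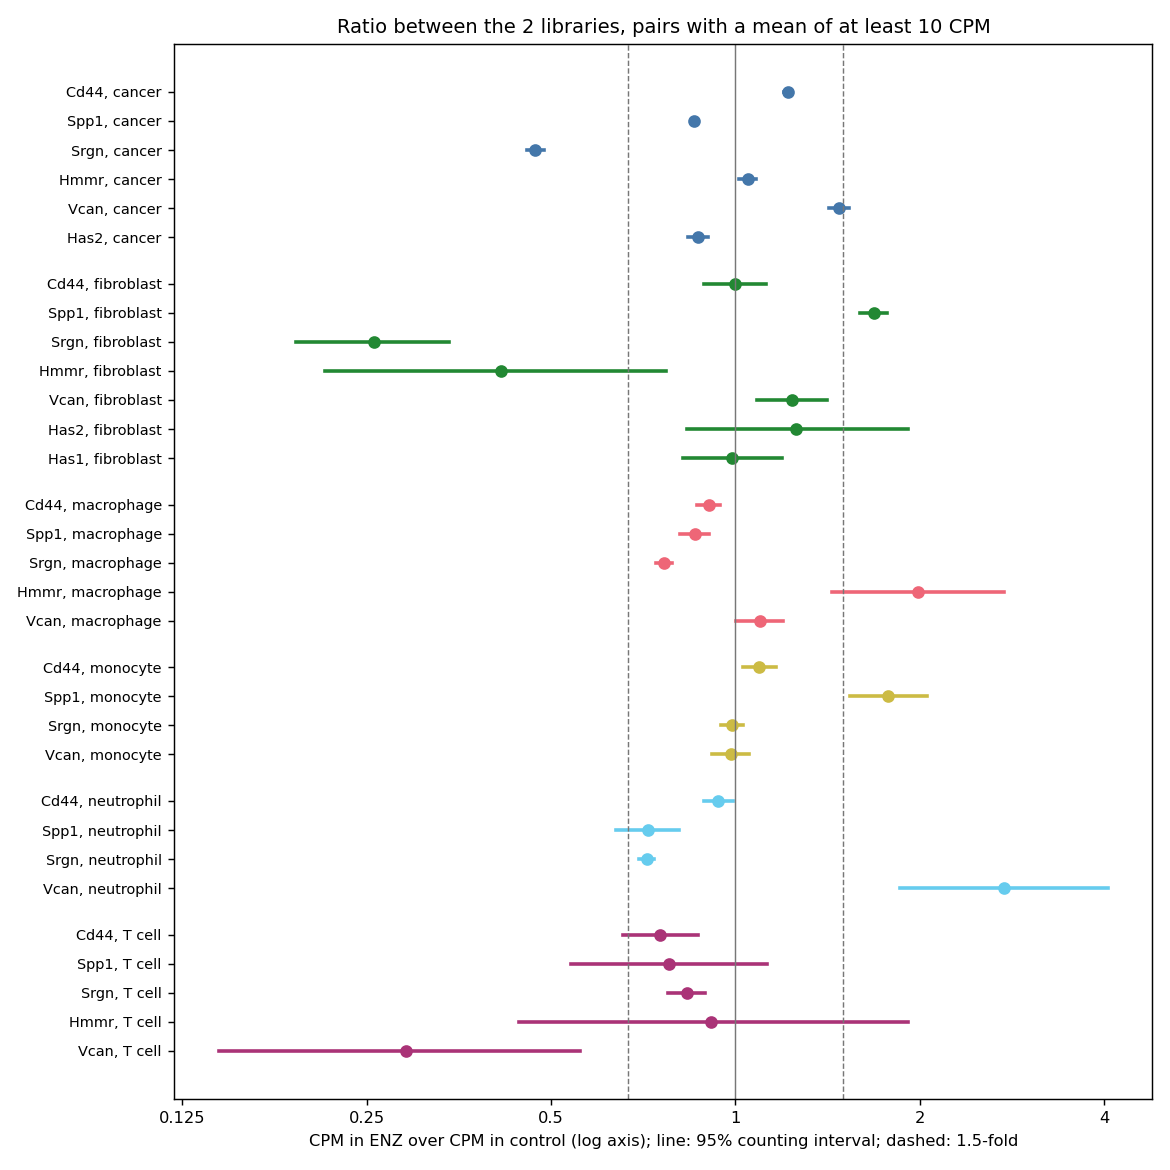
Ratio of ENZ to control for the 31 pairs of gene and gate compared, on a log axis, with exact 95% counting intervals and dashed lines at 1.5-fold. Cd44 lies inside the dashed lines in all 6 gates, and Srgn lies lowest in fibroblasts.

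Cd44 and Spp1 shared most cancer cells, and after thinning the rate was close to that given by their separate frequencies. Before thinning, 91.8% and 92.4% of cancer cells carried UMIs of Cd44 and Spp1 together. After thinning, 11.6% and 13.1% had both, against 11.6% and 12.6% if the 2 genes were independent, with odds ratios of 0.985 (0.858–1.13) and 1.10 (0.962–1.25). Without thinning and within strata of depth, the odds ratios in cancer cells were 1.83 and 1.85. In macrophages 123 and 64 cells had both, with odds ratios of 1.12 (0.855–1.47) and 1.29 (0.883–1.89). Neutrophils gave 1.07 (0.687–1.67) and 1.25 (0.608–2.56), with both genes in 18.9% and 17.3% of cells. All 6 intervals included 1, while ungated cells gave 1.25 (1.09–1.43) and 1.26 (1.08–1.46). The macrophage intervals did not stay there under every alternative: another random thinning gave 1.41 (1.07–1.86) in control, and doubled gate thresholds gave 1.77 (1.13–2.79) in ENZ. Summed levels showed a small difference in macrophages, since Cd44 was at 717 against 594 CPM in control cells with and without Spp1 (1.21, 1.15–1.27) and at 664 against 539 in ENZ (1.23, 1.13–1.34).

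For Has2, Vcan and Srgn the odds ratio with Cd44 had an interval above 1 in some gates. In each gate named here that held in 1 library only. These pairs were picked after their values were seen. The intervals take cells as independent and rest on 1 random thinning, and another thinning was not run for these pairs. Cancer cells with Has2 had a Cd44 UMI in 40.4% of cases against 26.7% of those without in the control, an odds ratio of 1.86 (1.40–2.46). In ENZ the shares were 37.6% and 33.3%, with an odds ratio of 1.21 (0.888–1.64). Monocytes with Vcan had Cd44 in 69.6% against 51.2% in the control (2.18, 1.38–3.45) and in 68.2% against 61.2% in ENZ (1.36, 0.914–2.02). With Srgn, the odds ratio was 1.51 (1.17–1.94) in control and 1.22 (0.879–1.71) in ENZ macrophages, 1.42 (1.12–1.80) and 1.12 (0.839–1.49) in cancer cells, and 1.27 (0.714–2.26) and 2.02 (1.19–3.42) in monocytes. The intervals of the 2 libraries overlapped for each pair named here, and the difference was not tested. Without thinning and within strata of depth, the order of the libraries turned for Has2 in cancer cells, at 1.63 and 4.68, and Vcan in monocytes gave 3.83 and 3.84. Srgn on that scale gave 2.04 and 1.94 in macrophages, 1.48 and 0.924 in cancer cells, and 1.42 and 4.98 in monocytes. Cancer cells with over 2 leukocyte UMIs per 10000 were 35.3% of the control gate and 12.5% in ENZ. They held Srgn at 236 and 237 CPM, against 33.8 and 27.8 in the remaining cancer cells. Their Cd44 was at 357 and 452 CPM, against 338 and 415, and their part in these odds ratios was not tested. In fibroblasts 7 and 3 cells held both Cd44 and Spp1 after thinning. Cd44 was in 53.8% of control fibroblasts with Spp1 against 32.6% of those without (2.41, 0.689–8.44), and in 12% against 33.3% in ENZ (0.273, 0.0696–1.07), so the libraries pointed opposite ways and both intervals included 1.

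Across the 12 points of 6 gates and 2 libraries, the level of Cd44 was most like that of Trib1, Il1rap and Oasl2 (Pearson's r of log2(CPM + 1) 0.980, 0.974 and 0.972 among 6190 genes). Spp1 was most like Hk2, Pdpn and Cebpd (0.975, 0.956 and 0.955), Vcan like Mmp19, Ifi211 and Tppp3 (0.912, 0.905 and 0.896), and Hmmr like Tia1, Ruvbl1 and Cenpf (0.966, 0.951 and 0.949). Srgn was most like Pag1, Snx20 and Sorl1 (0.993, 0.992 and 0.988). The points of a library share its preparation and the points of a gate its cells, so these values only describe.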

How the data were processed

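Droplet-based scRNA-seq libraries from 1 control and 1 ENZ-treated RM-1 tumor were used. The deposited matrices hold raw UMI counts of every barcode, as the authors' software wrote them before any cell calling. The submitters' processing notes name Cell Ranger 2.1.1 and mm10, while the matrix header names Cell Ranger 7.2.0. The counting of intronic reads was not given in the sources used here, and 0 columns of other samples were present.

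A gate required at least 2 UMIs of its gene and at least 5 per 10000 UMIs (50 for S100a8, 2 for Cd3e). Cells of several gates were set aside, except that Cd3e with Ly6c2 counted as a T cell, and Ly6c2 cells with at least 2 UMIs of Nkg7, Siglech or Cd79a were left ungated. No doublet caller was used apart from an alternative. UMIs were summed per gate and library (CPM, exact Poisson intervals), compared by exact conditional binomial intervals, and called by size at 1.5-fold with a mean of at least 10 CPM. Odds ratios used cells thinned to 1000 UMIs, with Woolf intervals. Leukocyte UMIs were the sum of S100a8, S100a9, C1qa, C1qb, C1qc, Lyz2, Tyrobp, Ptprc and Cd74. No p-value is given, because cells are not replicates.

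The members and lists were chosen with earlier results of these data known. Genes named are the members, up to 4 of each list by mean level, the 3 most like a member among genes reaching 50 CPM, and others said to be picked after their values were seen. A single further gene that the rule covers is not reported here. Of the gene identifiers, 32235 matched GENCODE M21. The steps were tested on simulated data. Python 3.11.15, numpy 2.4.6, scipy 1.17.1, pandas 2.3.3, scanpy 1.11.5 and matplotlib 3.10.9 were used. The alternatives covered UMI and mitochondrial limits, doublets, gate thresholds, classes from marker lists, averaging, scaling, the low-value filter and thinning.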

Additional observations from a re-analysis of the deposited data

Results flagged for a closer look

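For 4 of the genes the counting interval of the ENZ to control ratio lay above 1 in one gate and below 1 in another. With 1 library per condition, the difference between gates was not tested for any of them. Cd44 had a ratio of 1.22 in cancer cells and 0.754 in T cells, from 37622 and 47487 UMIs against 387 and 427. Spp1 had 1.78 in monocytes and 0.719 in neutrophils, where the highest 5% of cells held 49.8% and 53.3% of its UMIs. Vcan had 2.74 in neutrophils and 0.290 in T cells, with 59 UMIs or fewer in each library and gate. Hmmr had 1.99 in macrophages and 0.414 in fibroblasts, the latter from 34 and 16 UMIs.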

How the results depend on the processing

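Of 104 alternatives, 82 left a value within its counting interval or a count within 1.5 times, 19 moved it and 3 reversed it, and the cause was not tested. The log2 ratio of Cd44 in neutrophils (−0.09) became 0.018 with gate thresholds halved and 0.021 as the mean CPM of each cell, −0.27 with at least 2000 UMIs per cell, −0.17 with classes from marker lists and −0.24 with median-of-ratios scaling. In macrophages (−0.15) it became 0.044 with marker lists and −0.32 with that scaling, and in cancer cells (0.28) 0.23. The log2 ratio of Spp1 in macrophages (−0.22) was −0.14 with thresholds halved, −0.41 doubled, −0.072 with marker lists and −0.39 with scaling. The macrophage share of Spp1 UMIs, 4.79% and 2.11%, became 5.21% and 2.42% with thresholds halved, 3.95% and 1.39% doubled, and 9.20% and 5.19% with marker lists, which put 2602 and 1539 cells in that class, 1325 and 1231 in the fibroblast class and 743 and 968 in the T cell class. The 4 pairs higher in ENZ became 2 with thresholds halved and 2 with marker lists, and 11 without the low-value filter, where the 4 lower pairs became 10. The odds ratios of Cd44 with Spp1 in macrophages ranged from 1.10 to 1.41 in control and 1.01 to 1.77 in ENZ, and the highest value of each had an interval above 1. Among alternatives added after seeing the data, the log2 ratio of Srgn in cancer cells went from −1.09 to −0.28 with at most 2 leukocyte UMIs per 10000, and that of Spp1 in fibroblasts from 0.75 to 0.25. No paired analysis was possible because there was 1 library per condition, and no library could be left out. Depth limits Has3, Hyal1 and Hyal2, and the number of cells limits all genes in fibroblasts, of which there were 59 and 67.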
